A study of Mus musculus with 6 samples.

Results

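A set of 8 genes through which a neuron can package glutamate, or make, package, take up or break down GABA, was followed in dopaminergic neurons sorted from the pars compacta of the substantia nigra (SNc). The genes are the vesicular glutamate transporters Slc17a6, Slc17a7 and Slc17a8, the vesicular GABA transporter Slc32a1, the GABA-synthesizing enzymes Gad1 and Gad2, the GABA transporter Slc6a11 and the GABA-degrading enzyme Abat. They were chosen by symbol, and all 8 were found among the 23337 genes of the deposited table. The neurons came from adult C57BL/6 mice that carried the alleles Sox6-FSF-Cre and Th-2A-Flpo together with the reporter RC-Frepe, and both groups share this genotype. In this intersectional design Flpo is made from the Th locus, Cre is made from the Sox6 locus once Flpo has acted, and the reporter turns from mCherry to GFP where both recombinases have acted. GFP-positive neurons, which express Sox6, form the Sox6+ group, and mCherry-positive neurons, which do not, form the Sox6- group. Recombination is permanent, so a color records that Th or Sox6 was active at some time in the cell. Each group has 3 libraries, numbered 103, 825 and 1211. Whether each library stands for its own animals is not stated in the labels, and p-values therefore reflect only the spread between libraries, which may be technical.

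Dopaminergic neurons of the midbrain can release glutamate or GABA beside dopamine. Glutamate release needs a vesicular glutamate transporter, in these neurons mainly VGLUT2, the product of Slc17a6. The classical route to GABA release uses the glutamate decarboxylases GAD67 (Gad1) and GAD65 (Gad2) for synthesis and VGAT (Slc32a1) for packaging. Dopaminergic neurons are also known for a route that makes GABA through the aldehyde dehydrogenase Aldh1a1 and packages it with the vesicular monoamine transporter Slc18a2, and for uptake of GABA from outside the cell.

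The proximal promoters of 3 members are shown because these genes carry the patterns described here: Slc17a6 separated the groups, and Gad1 and Gad2 moved together over the libraries. The sequences are from RefSeq (GRCm38.p6), where 7 of the 8 members had an entry. They run 5′ to 3′ on the plus strand from 250 bases before the RefSeq start and stop where GENCODE places an exon. Capitals mark matches to the motifs searched.
Slc17a6: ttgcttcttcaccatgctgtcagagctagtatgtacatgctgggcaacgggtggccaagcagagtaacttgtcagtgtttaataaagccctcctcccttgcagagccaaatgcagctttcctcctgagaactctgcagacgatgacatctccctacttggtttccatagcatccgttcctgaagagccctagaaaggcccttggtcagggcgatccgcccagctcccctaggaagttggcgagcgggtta
Gad1: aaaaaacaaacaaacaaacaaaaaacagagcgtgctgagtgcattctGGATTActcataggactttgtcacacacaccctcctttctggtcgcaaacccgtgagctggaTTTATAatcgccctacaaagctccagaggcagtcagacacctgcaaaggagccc
Gad2: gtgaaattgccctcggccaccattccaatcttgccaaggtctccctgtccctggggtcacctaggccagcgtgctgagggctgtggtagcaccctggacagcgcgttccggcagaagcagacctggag
These lie at chr7:51621580-51621829, chr2:70561879-70562041 and chr2:22622077-22622204. On both strands of the 250 bases before each start, AACAAT (a core of Sox factor sites), AAAGGTCA (the element of the dopaminergic factor Nr4a2), TAATCC (bicoid-type homeodomain factors), TAATTA (other homeodomain factors) and TATAAA (the TATA box) were searched. TAATCC and TAATTA share their first bases. Gad1 held 1 match to TAATCC, on the minus strand, as did 6.38% of 27025 promoters of the same length. It also held 1 match to TATAAA, on the minus strand, as did 13.0% of promoters. No other match was found for these 3 genes. AACAAT, AAAGGTCA and TAATTA were present in 9.65%, 1.31% and 4.9% of promoters.

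Library depth ran from 10397924 to 12952768 recovered reads. Values are normalized read counts, in which 1 read is worth between 0.9241 and 1.1387. All 10 dopaminergic markers checked had reads in all 6 libraries, and their summed level lay between 105953.5 and 205310.5 in Sox6+ and between 38988.5 and 131883.0 in Sox6- libraries. Sox6 itself separated the groups, with 389.0 to 840.5 in Sox6+ against 18.1 to 103.6 in Sox6- libraries. Sox6+ library 825 stood apart. It held macrophage and microglia markers at a sum of 27615.7, against at most 41.6 in any other library, and oligodendrocyte markers at 2071.3, against 123.3 to 251.3. With 13429, it was also the library in which the fewest genes were detected. Of 7525 genes at 100 or more in each of the other 5 libraries, 9 were at 0 in Sox6+ library 825, and Gad1 and Gad2 were both among them. The same count for every other library in turn was 0. By a mean of at least 500 in the other 5 libraries, 20 genes were at 0 in Sox6+ library 825. That count was 12 in Sox6+ library 1211 and 5 to 7 in the remaining libraries. Results that rest on Sox6+ library 825 are therefore given with and without it.

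None of the 7 tested members passed the threshold of 0.05 on the adjusted p (limma, Benjamini-Hochberg), where 0.304% of 13175 tested genes did. Slc17a8, with a mean of 5.64 over the libraries, was below the minimum mean of 10 and was not tested. At an unadjusted p under 0.05, 1 member, Slc17a6, was counted, against 11.4% of all tested genes. EdgeR on the recovered reads called 0 members (0.0455% of genes) and DESeq2 called 1, Slc17a6 (2.98% of genes). The groups did not overlap for 1 of the 7, again Slc17a6, and for 17.0% of all tested genes. The log2 difference of Sox6+ minus Sox6- neurons was below 0 in 4 of the 7 tested members and in 51.9% of all tested genes, with medians of -1.59 and -0.02.

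**Figure D1:**
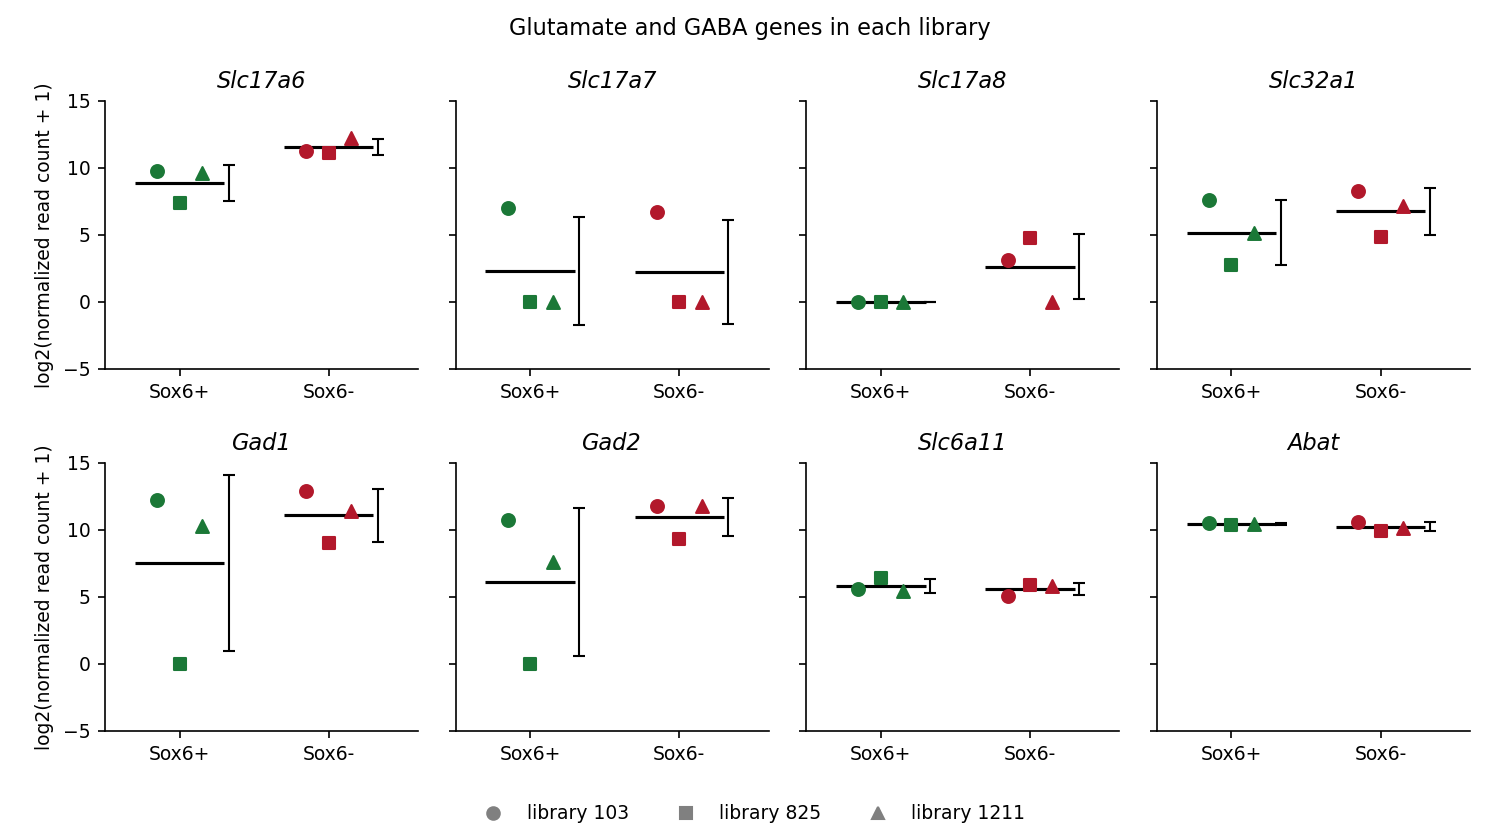
Normalized read counts of the 8 genes on a log2(value + 1) axis, by group, with 1 point per library (the shape gives its number), a line at the mean and an error bar of 1 SD (n = 3 libraries per group). Slc17a6 alone has 3 Sox6+ points below 3 Sox6- points, while Gad1 and Gad2 reach 0 in Sox6+ library 825.

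Slc17a6, which encodes the glutamate transporter VGLUT2, had the clearest separation. Sox6+ neurons held 873.1, 162.8 and 764.2 normalized reads for numbers 103, 825 and 1211, and the Sox6- libraries of those numbers held 2496.2, 2236.7 and 4815.2. The highest Sox6+ library thus lay below the lowest Sox6- library, with Sox6+ library 825 lowest of all and Sox6- library 1211 highest. The mean was 600.0 ± 382.5 in Sox6+ and 3182.7 ± 1419.8 in Sox6- neurons (SD, n = 3 each), and the ratio of the means, Sox6- over Sox6+, was 5.3, or 3.89 without Sox6+ library 825. On the log2(value + 1) scale the difference came to -2.65 (standard error 0.707), with a 95% interval from -4.38 to -0.91. The unadjusted p was 0.00987 and the adjusted p was 0.266 (limma, 3 libraries per group). An exact permutation test over libraries, two-sided, gave p = 0.1, which is its lower limit with 3 libraries in each group. The authors' deposited table gives Slc17a6 a log2 fold change of 2.41 for Sox6- over Sox6+ with a standard error of 0.74 and an adjusted p of 0.0438, in a table where 2.83% of 14519 genes with an adjusted p were called. The call thus differed between tools: the adjusted p was 0.312 with edgeR and 0.0414 with DESeq2 on the recovered reads. Without Sox6+ library 825 the log2 difference was -1.87 (adjusted p = 0.0926, limma).

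It is located on chromosome 7, from 51622006 to 51671119 on the plus strand (GRCm38, GENCODE M21), and no annotated exon of another gene overlaps its exons. In these bulk libraries, fewer neurons that use Slc17a6 and less of its RNA in each neuron cannot be told apart. Set against Th, the enzyme that starts dopamine synthesis and the gene that drives Flpo, the Slc17a6 level per kilobase of exon was 1.28%, 0.113% and 0.658% of that of Th in Sox6+ libraries 103, 825 and 1211. It was 6.22%, 1.9% and 14.2% in the Sox6- libraries. The groups did not overlap in this ratio. The log2 ratio of the normalized values differed by -3.59 between groups (-2.59 without Sox6+ library 825), and the exact permutation test, two-sided, again gave p = 0.1. Set against Slc18a2, which packages dopamine into vesicles, Slc17a6 per kilobase stood at 6.14%, 0.855% and 3.49% in the Sox6+ and at 53.6%, 20.4% and 109% in the Sox6- libraries. In Sox6- library 1211, transcripts of the glutamate transporter were thus as abundant per length as those of the monoamine transporter.

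The other vesicular glutamate transporters were scarce. Slc17a7, which encodes VGLUT1, the transporter typical of cortical and cerebellar glutamatergic neurons, had 128 reads in Sox6+ library 103 and 108 in Sox6- library 103. It had no read in the remaining 4 libraries, where 0 reads allow at most 3.42 normalized reads (3 reads per library, counting error only). Its presence followed the library number and not the group, with a log2 difference of 0.09 (adjusted p = 0.993, limma). Of the other glutamatergic markers checked, the cortical regulators Tbr1 and Emx1 were at 0 in all 6 libraries, and Neurod2 was at 0 in 5 and at 11.5 in Sox6- library 103. Slc17a8, which encodes VGLUT3, the transporter found in some serotonergic and cholinergic neurons, had 0 reads in all 3 Sox6+ libraries. It had 8 and 26 reads in Sox6- libraries 103 and 825 and none in 1211. Against a floor of 3 reads over the Sox6+ group, its mean in Sox6- neurons, 11.3 ± 13.5 (SD, n = 3), was at least 11.1-fold higher, but a Sox6- library was at 0 as well and the groups overlapped. Sox6- library 825 decides this bound: without it the mean was 3.84, at least 3.77-fold higher. The 4 serotonergic markers checked summed to between 25.0 and 59.2 in Sox6+ and between 0 and 57.5 in Sox6- libraries, and the 3 cholinergic markers to between 35.1 and 92.7 and between 7.05 and 396.0. Both sums were lowest in Sox6- library 825, and the part of such neurons in the Slc17a8 level was not tested. Slc17a7 lies on chromosome 7 from 45163949 to 45176142 (plus strand) and Slc17a8 on chromosome 10 from 89574020 to 89621253 (minus strand).

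The enzymes of GABA synthesis varied widely between libraries of a group, and Gad1 varied more there than between the groups. Gad1 held 4797.5, 0 and 1244.8 normalized reads in Sox6+ libraries 103, 825 and 1211, and 7647.0, 508.6 and 2636.7 in the Sox6- libraries. The groups overlapped, and in each of them library 103 was highest and library 825 lowest. The means were 2014.1 ± 2489.5 and 3597.4 ± 3664.9 (SD, n = 3 each). The log2 difference of -3.58 had a standard error of 3.78 and a 95% interval from -13.74 to 6.57 (adjusted p = 0.77, limma). Its size rests on the 0 in Sox6+ library 825: without that library it was 0.17, and with edgeR it was -0.85. With number 825 left out of both groups it was -0.88. Gad2 held 1679.1, 0 and 193.1 in the Sox6+ libraries and 3580.3, 645.5 and 3522.4 in the Sox6- libraries. Sox6+ library 103 lay above Sox6- library 825, so these groups overlapped too. The means were 624.1 ± 918.7 and 2582.7 ± 1677.9 (SD, n = 3 each), and the log2 difference of -4.87 had a standard error of 3.11 and an interval from -13.16 to 3.42 (adjusted p = 0.618, limma). Without Sox6+ library 825 it was -1.82, with number 825 left out of both groups -2.64, and with edgeR -2.06. The scatter around the group means of Gad1 and Gad2, 4.85 and 4.02 on the log2 scale, was larger than that of 99.9% and 99.8% of tested genes, respectively. For Slc17a6 it was 1.04, at the 82.2 percentile.

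Both transcripts were abundant where present. Gad1 lay at the 93.8 and Gad2 at the 88.2 percentile of the mean level of tested genes. In Sox6+ library 825 the 0 of each allows at most 3.42 normalized reads, although both were at 193.1 or more in every other library. Whether the macrophage and oligodendrocyte transcripts in this library, or its smaller number of genes, have a part in these 0s was not tested. Per kilobase of exon, Gad1 was 2.2 and 4.96 times Gad2 in Sox6+ libraries 103 and 1211. It was 1.64, 0.606 and 0.576 times Gad2 in Sox6- libraries 103, 825 and 1211. Both Sox6+ ratios thus exceeded the 3 Sox6- ratios; library 825 gave none, and no test was made of this.

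Slc32a1, which loads GABA into vesicles, followed Gad1. It held 191.4, 5.69 and 34.2 normalized reads in Sox6+ libraries 103, 825 and 1211, and 305.1, 27.2 and 141.0 in the Sox6- libraries. The groups overlapped. Their log2 difference, -1.59, had a standard error of 1.33 and an interval from -4.71 to 1.54 (adjusted p = 0.689, limma). Without Sox6+ library 825 this difference was -0.38, and with number 825 left out of both groups it was -1.34. The 6 libraries stood in the same order for Slc32a1 as for Gad1: all 15 pairs of libraries were ordered alike, as were 13 of 15 for Slc32a1 and Gad2. Per kilobase of exon, Slc32a1 was 10.9%, 14.6% and 14.6% of Gad1 in Sox6- libraries 103, 825 and 1211, and 10.9% and 7.5% in Sox6+ libraries 103 and 1211. This share lay between 7.5% and 14.6%, while Gad1 itself ranged from 508.6 to 7647.0 normalized reads. In Sox6+ library 825, Slc32a1 had 5 reads and Gad1 had 0. An antisense gene of the annotation, Gm14205, overlaps exons of Slc32a1 on the other strand. The kit marks strand, but the strand setting of the counting is not given in the sources used here, so the values of Slc32a1 are uncertain to that extent.

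**Figure D2:**
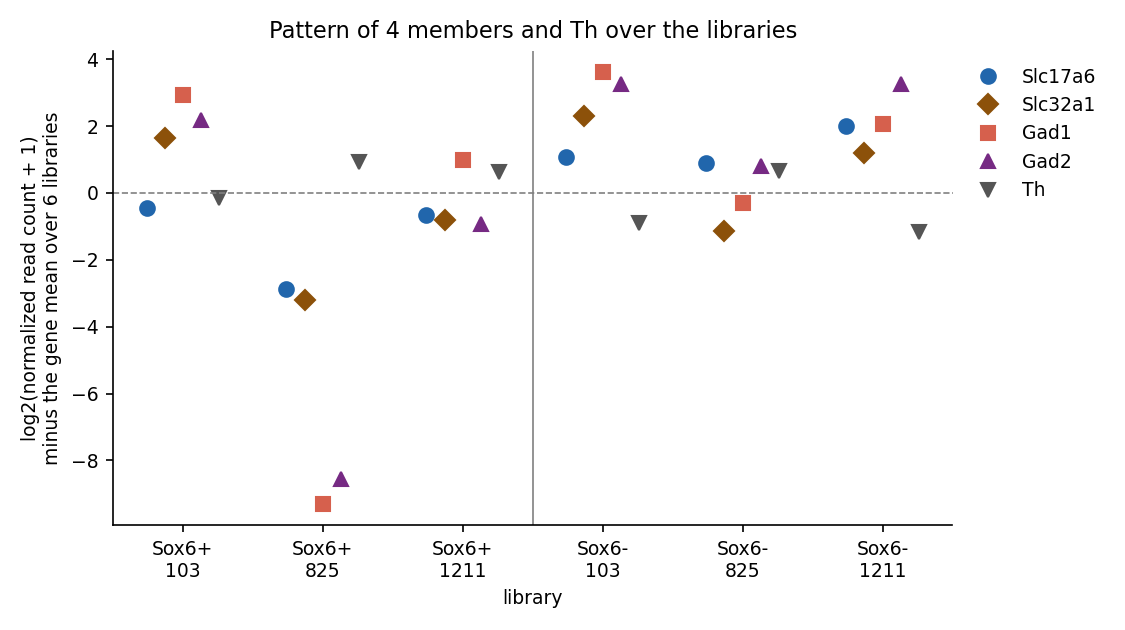
Log2(normalized read count + 1) of Slc17a6, Slc32a1, Gad1, Gad2 and Th in each of the 6 libraries, centred on each gene's mean over the libraries; the vertical line separates the groups. Gad1, Gad2 and Slc32a1 are lowest in Sox6+ library 825 and highest in Sox6- library 103, where Th is at its highest and near its lowest, respectively.

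The libraries with more Gad1, Gad2, Slc32a1 and Slc17a6 were those with less Th. Of the 15 pairs of libraries, each of the 4 genes was ordered like Th in only 2. Th lay at 29970.6, 63184.0 and 50858.3 in Sox6+ libraries 103, 825 and 1211 and at 17583.9, 51430.7 and 14823.2 in the Sox6- libraries. These libraries share their depth and normalization across genes, so the orders are a description. Markers of GABAergic neurons other than the members also differed between libraries. The 14 markers summed to between 9.11 and 870.5 in Sox6+ and between 78.6 and 571.3 in Sox6- libraries, and Tal1 and Pax5 were at 0 in all 6. In Sox6+ libraries 103 and 1211 most of the sum was Pvalb, a calcium buffer of fast-spiking neurons, at 400.5 and 868.7. Forebrain GABAergic regulators were seen in Sox6- neurons: Dlx1 lay at 31.7 and 75.1 and Lhx6 at 138.1 and 32.5 in libraries 103 and 1211. Dlx1, Dlx2, Dlx5, Dlx6 and Lhx6 had no read in any Sox6+ library, including library 103 with its 4797.5 normalized reads of Gad1. The part of other GABAergic neurons in the Gad1, Gad2 and Slc32a1 levels was not tested. The 9 markers of other glutamatergic neurons summed to between 0 and 934.2 in Sox6+ and between 418.9 and 949.7 in Sox6- libraries, and their part in the Slc17a6 difference was not tested.

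Slc6a11, which encodes the GABA transporter GAT3, and Abat, the GABA transaminase that breaks GABA down, had similar levels in both groups. Slc6a11 held 46.4, 84.3 and 41.6 normalized reads in Sox6+ libraries 103, 825 and 1211 and 32.6, 56.4 and 53.8 in the Sox6- libraries, so the groups overlapped. Its log2 difference was 0.23 with a 95% interval from -0.94 to 1.41 (adjusted p = 0.893, limma). GAT3 is best known from astrocytes, and the astrocyte markers Gja1 and Gjb6 were at 0 in all 6 libraries, while Aqp4 was at 0 in 5 and at 4.62 in Sox6+ library 1211. The summed level of the 7 astrocyte markers lay between 3.42 and 310.8 in Sox6+ and between 66.5 and 115.9 in Sox6- libraries. Of these markers, Sox9 lay between 0 and 88.8 in Sox6+ and between 30.7 and 58.4 in Sox6- libraries. Slc4a4 lay between 0 and 222.0 in Sox6+ and between 3.02 and 36.5 in Sox6- libraries. The part of astrocytes in the Slc6a11 level was not tested. Abat held 1431.4, 1285.6 and 1346.4 in the Sox6+ and 1518.6, 970.8 and 1138.0 in the Sox6- libraries. It was the steadiest of the members, with means of 1354.5 ± 73.3 and 1209.1 ± 280.8 (SD, n = 3 each). Its log2 difference of 0.19 had an interval from -0.24 to 0.61 (adjusted p = 0.738, limma), which bounds a change in either direction more tightly than for any other member. An adjusted p above the threshold does not show that the groups have the same level.

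**Figure D3:**
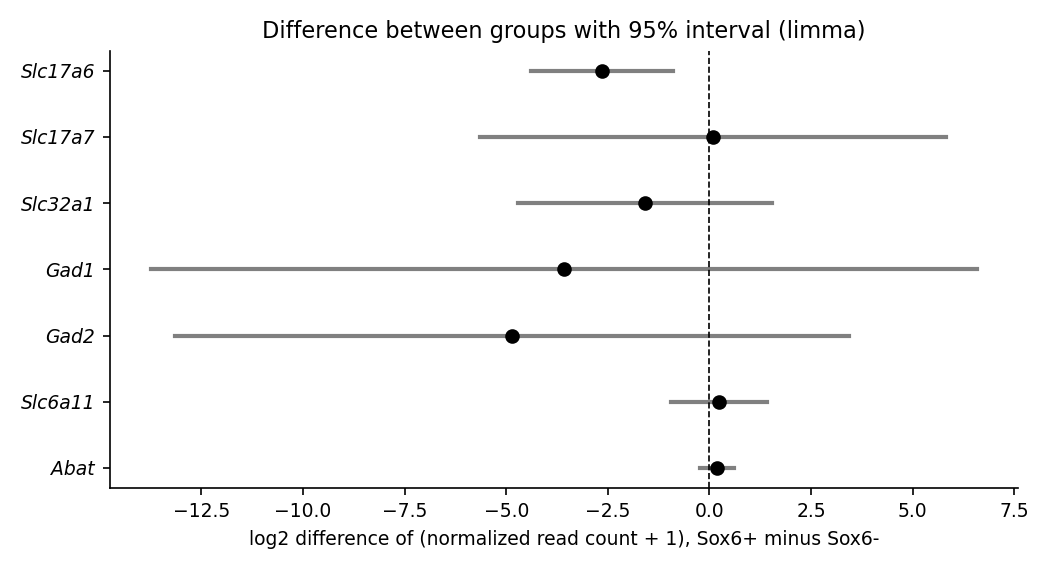
Log2 difference of Sox6+ minus Sox6- neurons (points) with its 95% interval (lines) for the 7 tested members, from limma on log2(normalized read count + 1), n = 3 libraries per group. The interval of Slc17a6 lies below 0, that of Abat spans -0.24 to 0.61, and those of Gad1, Gad2 and Slc17a7 are the widest.

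The order of the members by level differed between the groups on a scale of normalized reads per kilobase of exon. In Sox6- neurons Slc17a6 came first at 589.5 ± 263.0, followed by Gad1 at 470.9 ± 479.8 and Gad2 at 439.5 ± 285.6 (SD, n = 3 each), and these 3 neighbours did not differ beyond their spread. Abat followed at 156.1 ± 36.2 and Slc32a1 at 56.4 ± 49.9. Slc6a11, Slc17a7 and Slc17a8 closed the order at 9.43 ± 2.58, 6.41 ± 11.1 and 2.39 ± 2.85. In Sox6+ neurons Gad1 came first at 263.7 ± 325.9, then Abat at 174.8 ± 9.46, Slc17a6 at 111.1 ± 70.9, Gad2 at 106.2 ± 156.4 and Slc32a1 at 27.6 ± 35.8. Gad1, Abat, Slc17a6 and Gad2 did not differ from their neighbours in this order beyond the SD. By single Sox6+ libraries, however, Abat at 165.9 to 184.8 did not overlap with Slc17a6 at 30.2 to 161.7. Slc6a11 and Slc17a7 followed at 11.4 ± 4.63 and 7.81 ± 13.5, and Slc17a8 was at 0. Without Sox6+ library 825, Gad2 at 159.3 came before Slc17a6 at 151.6, and Slc17a7 at 11.7 before Slc6a11 at 8.71, with Gad1 at 395.5 and Abat at 179.3 still first. For comparison, Th stood at 20306.4 ± 7102.2 per kilobase in Sox6+ and at 11821.5 ± 8623.2 in Sox6- neurons.

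Likeness of pattern was measured as the root mean square over the 6 libraries of the difference in log2(value + 1), each gene centred on its mean, among 9746 other genes with a mean of at least 50. The genes nearest to Slc17a6 were Hist4h4, a histone gene, at 0.131, Sorcs3, a sorting receptor, at 0.282, Plk5 at 0.326 and Ngb, which encodes neuroglobin, at 0.337. Nearest to Slc32a1 were the serotonin receptor Htr2c at 0.547, Hopx at 0.565, the G-protein regulator Rgs10 at 0.654 and Gabrg1, a GABA-A receptor subunit, at 0.679. Gad1 had Kcnip1, a subunit that modulates A-type potassium channels, nearest at 0.966, then Kctd8 at 0.994, Gad2 at 1.12 and Gulo at 1.19. Kcnip1 was also nearest to Gad2, at 0.564, followed by Crhbp at 0.886, Arpp21 at 0.897 and Fam19a2 at 0.922. All 8 genes nearest to Gad1 or Gad2, counting Kcnip1 under both, were at 0 in Sox6+ library 825, a value that weighs heavily in this measure. From the side of Gad2, Gad1 ranked 11 of 9746.

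Among other tested genes of the GABA pathway, the 2 of the alternative route had the largest log2 differences. Aldh1a1, the aldehyde dehydrogenase that also marks ventral SNc neurons, held 45219.2, 55488.7 and 66304.8 normalized reads in Sox6+ libraries 103, 825 and 1211 and 19548.7, 11200.6 and 7226.6 in the Sox6- libraries. Slc18a2 held 13767.9, 18435.5 and 21200.0 against 4509.9, 10597.3 and 4280.1. The groups did not overlap for either gene, in the direction opposite to that of Slc17a6. Their log2 differences were 2.24 and 1.57 with standard errors of 0.349 and 0.357, and their adjusted p-values were 0.0702 and 0.171 (limma). The authors' deposited table gives adjusted p-values of 2.35e-09 and 0.000655 for them. Slc18a2 is also 1 of the 10 dopaminergic markers. All 10 had a positive log2 difference, with a median of 1.39, as did 6339 of 13175 tested genes. Whether the Slc18a2 difference is particular to the GABA route was not tested. None of the 10 passed the threshold (limma). Aldh5a1, which finishes GABA breakdown after Abat, and Aldh9a1 and Maob, of another route to GABA, had log2 differences of 0.16, -0.37 and -0.73 (adjusted p = 0.902, 0.612 and 0.532, limma). Of the 9 genes, 6 were tested, 3 with a positive and 3 with a negative difference and a median of -0.07, and 0 passed with limma (2 of the 6 at an unadjusted p under 0.05, against 11.4% of all tested genes, and 0 with edgeR). DESeq2 on the recovered reads called 1. Gadl1, Slc6a12 and Slc6a13 were below the minimum mean.

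**Figure D4:**
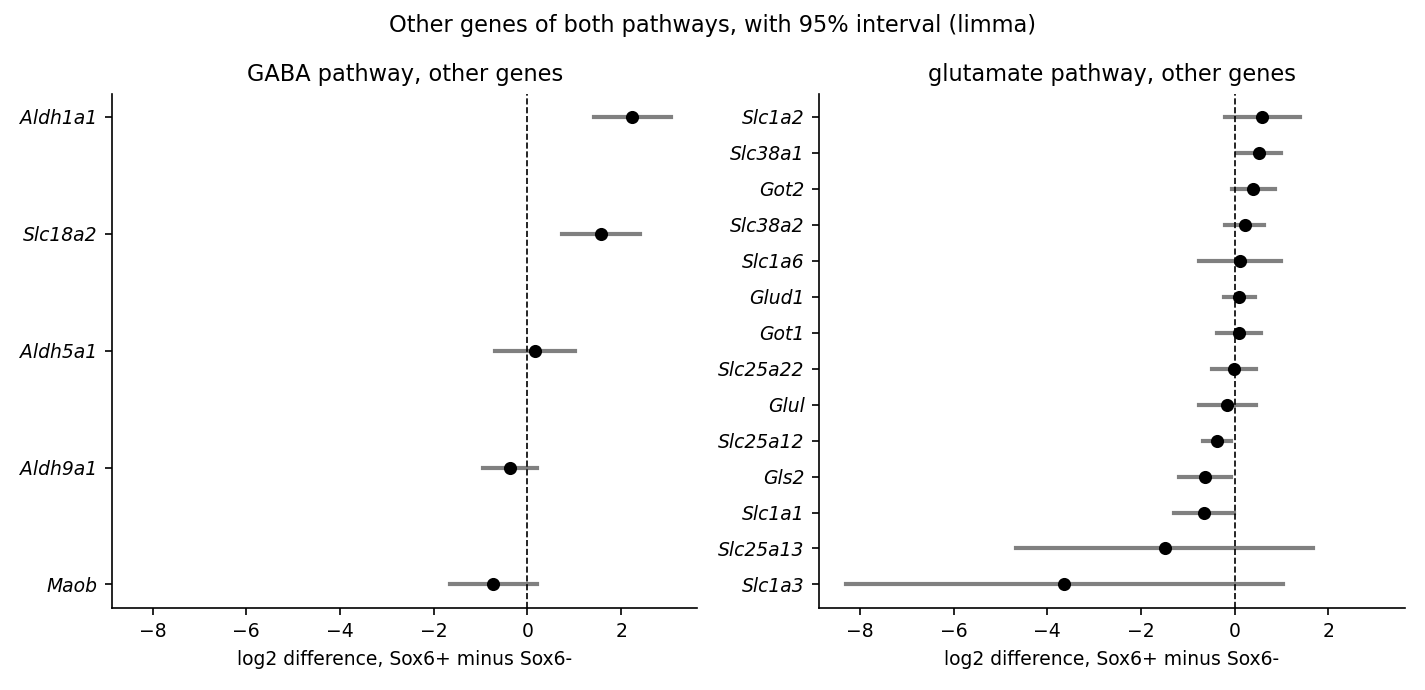
Log2 difference of Sox6+ minus Sox6- neurons (points) with 95% intervals (lines, limma, n = 3 libraries per group) for tested genes of the GABA pathway (left) and the glutamate pathway (right) other than the 8 members. Aldh1a1 and Slc18a2 lie furthest to the right, and the interval of Slc1a3 is the widest.

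Of 17 genes that make, shuttle and recapture glutamate, 15 were tested, 7 with a positive and 8 with a negative difference and a median of -0.02, equal to that of all tested genes. With limma 0 passed over all genes, 4 of the 15 had an unadjusted p under 0.05 (11.4% of all tested genes did), and edgeR and DESeq2 called 0. The authors' deposited table gives an adjusted p of 0.0463 for Slc1a3, a glial glutamate transporter named here after its values were seen. Slc1a3 had no read in any Sox6+ library and lay at 75.8, 0 and 24.1 in Sox6- libraries 103, 825 and 1211, with a log2 difference of -3.64 (adjusted p = 0.536, limma). Slc25a12, the mitochondrial aspartate-glutamate carrier, held 2498.9, 2274.0 and 2216.9 in the Sox6+ and 3161.1, 2864.1 and 3026.2 in the Sox6- libraries, with no overlap. It differed by -0.37 on the log2 scale, with a standard error of 0.132 (adjusted p = 0.33, limma). The glutaminase gene Gls2 lay at 223.1 ± 46.9 against 340.4 ± 6.52 and Slc1a1, a neuronal glutamate transporter, at 385.2 ± 109.5 against 601.9 ± 138.4 (SD, n = 3 each). Higher means in Sox6+ neurons were found for Slc38a1, a glutamine transporter, at 3978.0 ± 1073.4 against 2718.2 ± 277.3, for Slc1a2, a glutamate transporter, at 672.9 ± 289.3 against 430.8 ± 143.5, and for Got2, the mitochondrial aspartate aminotransferase, at 590.5 ± 76.6 against 449.9 ± 53.1 (SD, n = 3 each). For these 5 genes limma gave adjusted p-values between 0.39 and 0.56.

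**Figure D5:**
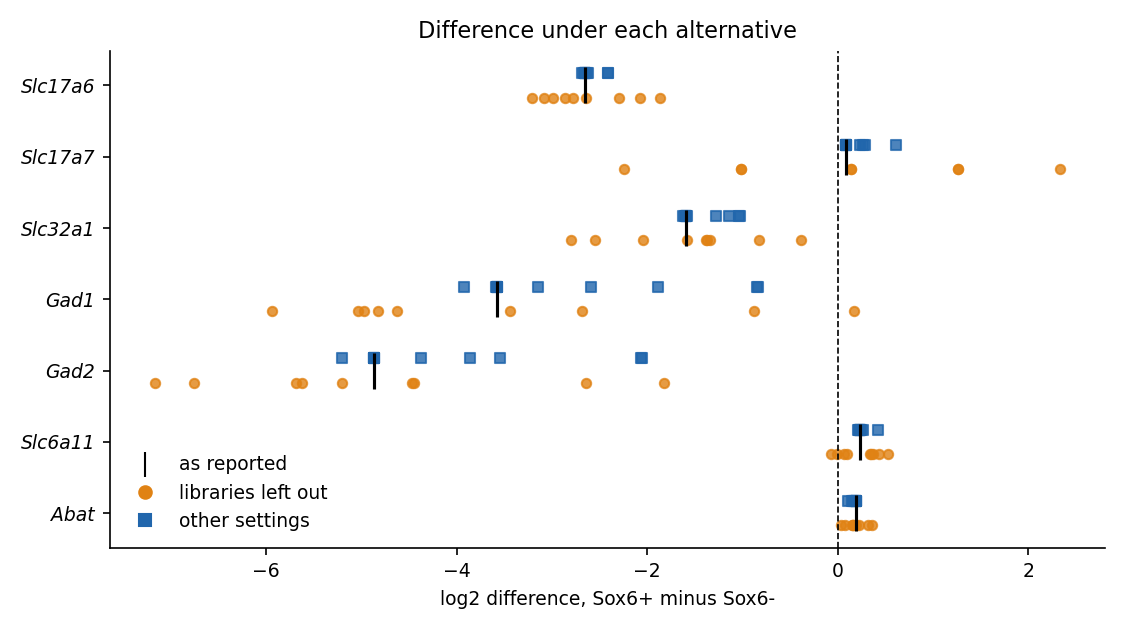
Log2 difference of Sox6+ minus Sox6- neurons for the 7 tested members as reported (black ticks), with 1 library or library number left out (circles) and under other settings of test, normalization, filter and pseudocount (squares). All points of Slc17a6 lie between -3.21 and -1.87, while those of Gad1 reach from -5.94 to 0.17.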

How the data were processed

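Poly(A) RNA of neurons sorted by fluorescence was sequenced from stranded TruSeq libraries, per the labels' protocols. Tools named in the submitters' processing notes are DESeq2, HTSeq, STAR, cutadapt and FastQC, with GRCm38 and mm10 as builds; the sources used here give neither versions nor settings. Per gene symbol, the authors deposited normalized signal values of 6 libraries beside their own DESeq2 test: a score (its statistic), the log2 fold change with its standard error, and a p-value with its adjusted value. Each deposited signal column holds read counts after division by the size factor of that library: 100.0% of values above 0 were whole multiples of 1 step, within 0.01. For Sox6- library 825 the step was 1.0071, and reads were recovered in the same way.

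Groups were compared with limma (2-sided, no block, mean-variance trend, robust moderation) fitted to log2(value + 1) for genes with a mean of at least 10, with Benjamini-Hochberg adjustment over all 13175 tested genes. Differences on this scale understate the change of low genes. Alternatives were a pseudocount of 0.5 or 8, no filter or a higher one, quantile or TMM normalization, unmoderated settings of limma (no trend, not robust), the library number as a block, edgeR and DESeq2 on recovered reads, and leaving out libraries. The fit was tested on simulated counts. All 8 members were named, with the 3 genes of smallest p in each direction of both pathway lists (single markers were added after their values were seen) and the 4 genes nearest in pattern to 4 members. Some genes of these lists are counted but not reported here by name. Members and lists were chosen with earlier results of these data known. Positions and exon lengths are from GENCODE M21 (GRCm38). R 4.3.3 was used with DESeq2 1.42.0, edgeR 4.0.16 and limma 3.58.1, and Python 3.11.15 with scipy 1.17.1, pandas 2.3.3, numpy 2.4.6 and matplotlib 3.10.9.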

Additional observations from a re-analysis of the deposited data

How the results depend on the processing

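Depth limits Slc17a8, which rests on 34 reads in all. Slc17a6 kept a negative log2 difference in all 20 alternatives, from -3.21 to -1.87, and passed the threshold in 1, DESeq2 on the recovered reads (-2.41, adjusted p = 0.0414); its adjusted p otherwise reached up to 0.966. With 1 library left out it ran from -3.08 to -1.87. Slc32a1 and Gad2 stayed negative and Abat positive in 20 of 20 alternatives, from -2.8 to -0.38, from -7.17 to -1.82 and from 0.04 to 0.36. Gad1 turned to 0.17 without Sox6+ library 825 and otherwise ran down to -5.94 with 1 library left out. Leaving out 1 library, Slc17a7 ran from -2.24 (without Sox6+ library 103) to 2.33, with -1.02 without Sox6- library 825 or 1211. On the same basis Slc6a11 ran from -0.07 (without Sox6+ library 825) to 0.43, with -0.01 without Sox6- library 103. Aldh5a1 (-0.1 without Sox6+ library 103, -0.0 and -0.02 without Sox6- libraries 825 and 1211, and -0.09 without number 1211; 0.49 at most, without Sox6- library 103) also changed sign. Among all genes the count past the threshold, 40, became 69 with a pseudocount of 8 and with quantile normalization, 21 without a filter, 24 without trend or robust moderation, 6 with edgeR and 387 with DESeq2. It ran from 1 to 162 with 1 library left out (1 and 22 on leaving out Sox6- libraries 1211 and 825, and 12, 26 and 162 on leaving out Sox6+ libraries 1211, 825 and 103), and was 82, 12 and 1 without numbers 103, 825 and 1211. Of the other GABA pathway genes, 1 passed with DESeq2, without Sox6- library 103 or 825 and without number 103 or 825 (Aldh1a1 or Slc18a2). Slc17a8 and Slc17a7 had fewer alternatives, since filters left them out. The ratio of Slc17a6 to Th stayed negative in 12 of 12 alternatives, from -4.36 to -2.59. The cause of these changes was not tested.

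The labels do not say what the library numbers stand for. Deviations from the group means correlated at 0.268, 0.172 and 0.079 between libraries of the same number 103, 825 and 1211 over 13175 genes; each library correlated best with its own number, but not every value passed 0.1, so the number was not taken as a pairing. With it as a replicate block, 267 genes passed with limma and 120 with edgeR, and none of the members did (lowest adjusted p 0.117, for Slc17a6, limma). Within each number, Slc17a6, Slc32a1, Gad1 and Gad2 were lower in the Sox6+ library, and no other member was lower at every number. For Slc32a1 the log2 differences were -0.67, -2.07 and -2.01 for 103, 825 and 1211. With the block its unadjusted p was 0.0127 and its adjusted p 0.161 (limma).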
